A study of Mus musculus with 12 samples.

Results

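The genes of mitochondrial fatty acid oxidation and ketone body handling were followed in mouse kidney cortex by RNA sequencing. The set comprised 29 genes chosen by name and arranged by step: uptake (3 genes), activation (1 gene), the carnitine shuttle and its control (4 genes), the acyl-CoA dehydrogenases (8 genes), the later steps of the cycle (7 genes), electron transfer (3 genes) and ketone bodies (3 genes). All 29 were found among the 55487 genes of the count table. Mice of a mixed C57BL/6 background, young when operated on, carried floxed alleles of ALR (Gfer), which encodes a sulfhydryl oxidase of the mitochondrial intermembrane space. In the Control group, which the labels call WT with sham treatment, the floxed alleles were left intact. In the KO group, which the labels call ALR knockdown, the same alleles were combined with Ggt1-Cre, a transgene active in proximal tubular cells, so that other cells of the cortex keep the gene. The Control-IR and KO-IR groups were the corresponding genotypes after 22 min of clamping of both kidneys and 24 h of reperfusion. Each of the 4 groups had 3 libraries. The sources used here do not say whether a library was made from a single animal, so the p-values measure the spread between these libraries.

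Fatty acids are taken up by cells, joined to coenzyme A and carried into the mitochondrial matrix by carnitine. There they are shortened in repeated rounds of dehydrogenation, hydration, a further dehydrogenation and thiolysis. The electrons pass through the electron transfer flavoprotein to the respiratory chain, and ketone bodies enter the same matrix pool as acetyl-CoA. The proximal tubule has little glycolysis and draws most of its ATP from this pathway, and loss of its transcripts is a known feature of the injured tubule.

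Library totals ran from 12165089 to 23123693 counts, and 20416 to 22210 genes had at least 1 count. Levels are given as CPM (counts scaled to library size) after TMM scaling, and levels of different genes are compared only per kilobase of annotated exon. In Control libraries 1 and 2, Xist stood at 22402 and 19755 counts and the 4 Y-linked genes at 0, whereas the other 10 libraries held at most 11 counts of Xist and had counts of all 4. The first 2 were taken as female and the others as male, so that Control alone held both sexes. Counts over the whole Gfer gene did not show a loss in the libraries labelled as knockdown: its levels were 12.7, 11.4 and 14.4 CPM in Control, 9.96, 17.1 and 15.02 in KO, 15.3, 20.0 and 17.6 in Control-IR, and 21.6, 22.8 and 21.6 in KO-IR. Gfer was not called between KO and Control (log2 0.13 ± 0.20, adjusted p = 0.761) and was higher in KO-IR than in KO (0.64 ± 0.18, adjusted p = 0.00888). The study's methods place the loxP sites on either side of an internal exon, and counts of that exon were not analysed here, so the deletion was not checked and KO is used as the name of the group. Proximal tubule markers were abundant in every library, with a summed level of 12 markers from 554 to 3360 CPM per kb. White and brown fat markers stood out in Control library 1 (Adipoq 5.82 and Ucp1 10.3 CPM, against at most 0.311 CPM elsewhere), and the muscle gene Ckm stood out in KO library 2 (9.36 CPM, against at most 0.315 CPM elsewhere).

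Some sequences show where the measurements and the genes lie. The study's own primers for the carnitine palmitoyltransferases read coding exons, and each set was matched here to the GENCODE transcripts of a single gene. The set for CPT1 matched Cpt1a, the liver and kidney form, with the forward primer in exon 5 at chr19:3358187-3358206 and the reverse primer in exon 7 at chr19:3364478-3364497 (GRCm38, gene on the plus strand). The set for CPT2 lay in exon 4 of Cpt2, at chr4:107907617-107907636 and chr4:107907563-107907582 (gene on the minus strand). They are shown because they mark the coding stretches of the genes at the entry step.
m-CPT1 forward: ggtcttctcgggtcgaaagc
m-CPT1 reverse: tcctcccaccagtcactcac
m-CPT2 forward: caatgaggaaaccctgagga
m-CPT2 reverse: gatccttcatcgggaagtca

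Promoters of 24 of the 29 members were found in the RefSeq table for GRCm38.p6, and Decr1, Acaa2, Crat, Acad9 and Acat1 had no entry. The letters AGGTCA, the core element read by nuclear receptors such as the PPARs and the estrogen-related receptors, were searched on both strands in the 250 bases before each start. They were found in 5 of the 24 members (Cd36, Cpt1a, Acadm, Acadvl and Echs1) and in 14.0% of all 32851 windows. A member was counted if any of its windows held the letters, whereas the share is per window, so the figures cannot be compared directly. The promoters of Cpt1a (chr19:3323051-3323284, plus strand) and Acadm (chr3:153944644-153944893, minus strand) are shown because both hold the letters while the genes moved in opposite directions in KO-IR, and the capitals mark AGGTCA or its reverse complement. The stretches shown leave out bases of annotated exons, so that of Cpt1a holds 234 of the 250 bases searched. A match describes the letters only. Hadha and Hadhb, the subunits of the trifunctional protein, are transcribed away from each other across the 85 bases at chr5:30155163-30155247, shown on the strand of Hadhb, which hold none of these letters.
Cpt1a: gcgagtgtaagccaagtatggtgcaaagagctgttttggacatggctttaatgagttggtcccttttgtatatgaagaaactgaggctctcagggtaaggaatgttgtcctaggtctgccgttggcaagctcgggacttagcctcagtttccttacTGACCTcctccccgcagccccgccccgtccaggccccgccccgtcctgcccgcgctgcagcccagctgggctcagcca
Acadm: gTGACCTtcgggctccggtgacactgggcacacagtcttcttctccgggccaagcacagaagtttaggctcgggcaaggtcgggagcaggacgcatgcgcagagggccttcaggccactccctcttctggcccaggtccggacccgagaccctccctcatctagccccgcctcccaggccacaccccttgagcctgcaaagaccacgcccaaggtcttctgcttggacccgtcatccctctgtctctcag
Hadha to Hadhb: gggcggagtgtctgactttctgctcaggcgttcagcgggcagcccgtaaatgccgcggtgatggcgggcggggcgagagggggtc

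To examine what injury did to the pathway in the KO genotype, KO-IR was compared with KO, a comparison of males only. Most members fell, but not the carnitine shuttle: 18 of 29 members were lower, 4 were higher (Acsbg1, Cpt1a, Acadl and Etfdh), and 7 did not pass the test (Cd36, Cpt2, Crat, Mlycd, Acadvl, Hadha and Eci1). The median log2 fold change of the members was −0.45, against 0.01 over all genes tested. In all, 22 members were called at an adjusted p below 0.05 in edgeR's quasi-likelihood test, which is to be read against a background of 65.5% of 15155 genes, 32.9% higher and 32.7% lower. The 3 libraries of each group did not overlap for 23 members, against 70.8% of all genes tested.

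When the injured genotypes were compared with each other, KO-IR against Control-IR, the members moved in both directions. Of the 29, 8 were higher in KO-IR (Cd36, Acsbg1, Cpt1a, Cpt2, Crat, Acadl, Acads and Etfdh) and 4 were lower (Fabp3, Acadm, Acadsb and Acad9), with a median log2 fold change of −0.02 against 0.00 over all genes. The 12 called are 41.4% of the members, near the background of 46.9% of 15281 genes (22.5% higher, 24.4% lower), and 12 members had groups that did not overlap, against 58.7% of all genes. The split depended on scaling. With library totals in place of TMM the median of all genes moved from 0.00 to −0.21, and 4 members were called higher (Cpt1a, Cpt2, Acadl and Etfdh) and 6 lower (Fabp3, Acadm, Acadsb, Acad9, Eci1 and Etfa) beside 46.2% of all genes, so the directions below are relative to that shift. The calls of Cpt1a, Cpt2, Acadl, Acads, Etfdh, Fabp3 and Acad9 held whichever library was left out, 7 of the 12, and the count fell to 7 without Control-IR library 1 or without KO-IR library 3, where 35.2% and 34.3% of all genes were called.

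**Figure D1:**
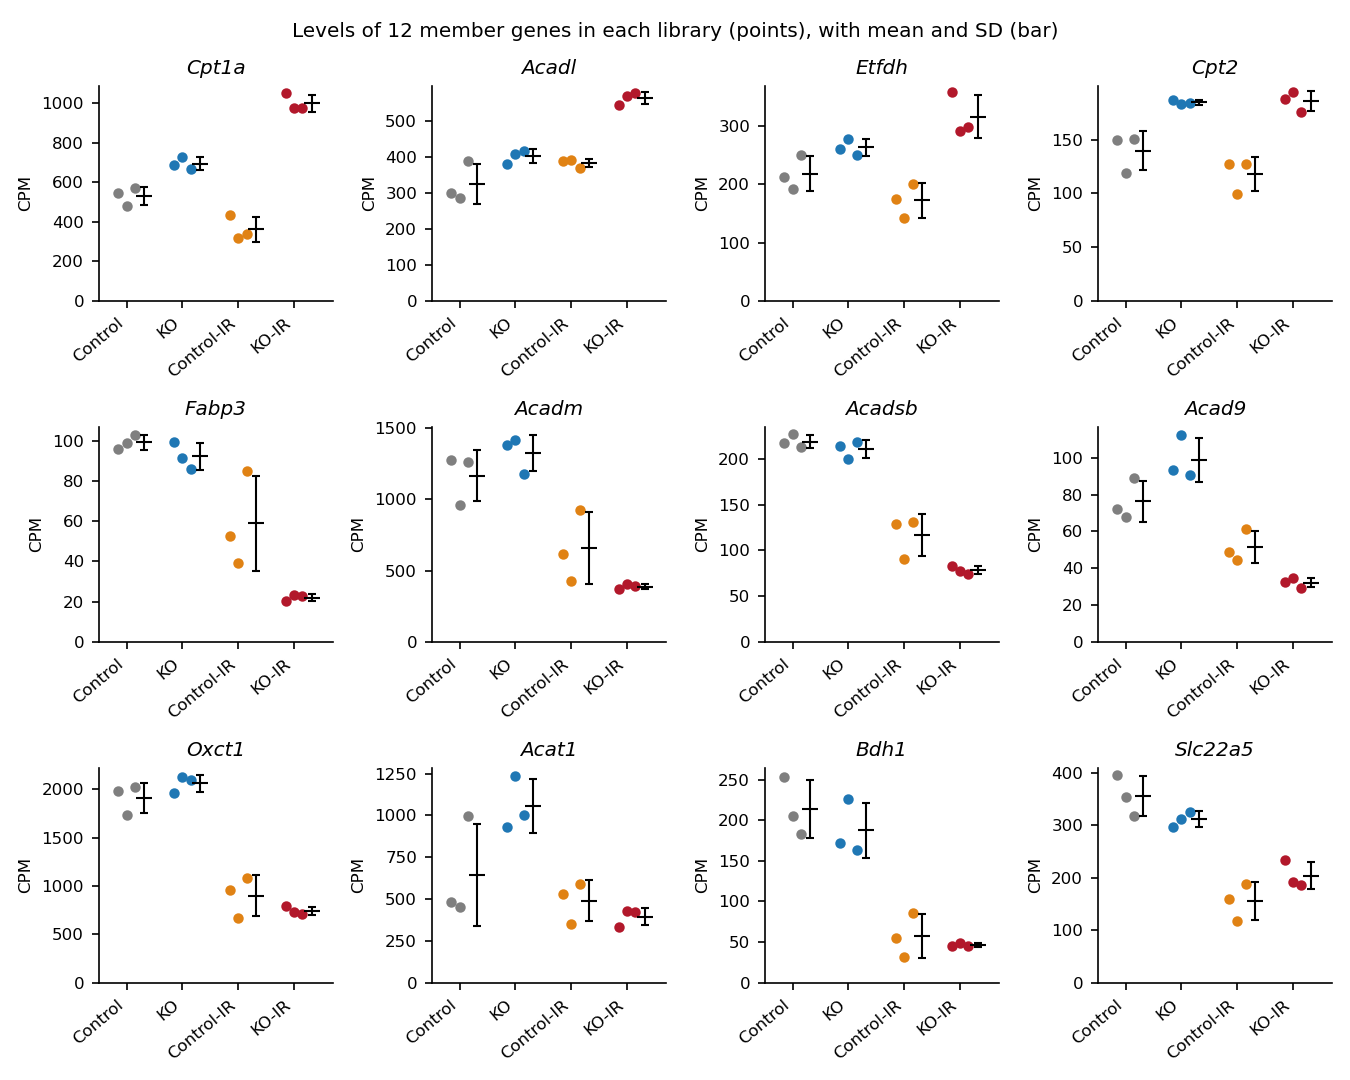
Levels of 12 member genes (y axis, CPM from 0) in each of the 4 groups (x axis); points are the 3 libraries of a group and the bar is their mean ± SD. Cpt1a reached 975 to 1050 CPM in KO-IR, above every other library, while Fabp3 lay at 20.1 to 23.2 CPM there, below every other library.

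The carnitine shuttle carries long-chain acyl groups into the matrix. Cpt1a, its rate-limiting outer membrane enzyme, stood at 544, 480 and 569 CPM in Control, 688, 729 and 665 in KO, 432, 316 and 336 in Control-IR, and 1050, 975 and 976 in KO-IR. All 3 KO-IR libraries lay above all the others. Cpt1a rose by 0.52 ± 0.09 (log2, SE) over KO (adjusted p = 0.000506) and was higher by 1.46 ± 0.15 than in Control-IR (adjusted p = 0.000438), a ratio of mean levels of 2.77. Cpt2, the inner membrane enzyme that frees the acyl group inside, stood at 150, 119 and 151 CPM in Control, 187, 183 and 184 in KO, 127, 99.4 and 127 in Control-IR, and 188, 194 and 176 in KO-IR. The KO and KO-IR libraries overlapped (log2 difference 0.00 ± 0.08, adjusted p = 0.982), while Cpt2 was higher than in Control-IR by 0.65 ± 0.13 (adjusted p = 0.00519). Crat, a carnitine acetyltransferase that buffers acetyl groups, stood at 168, 153 and 153 CPM in KO-IR, 168, 166 and 155 in KO, 107, 90.1 and 135 in Control-IR, and 148, 127 and 155 in Control. It was higher than in Control-IR by 0.51 ± 0.16 (adjusted p = 0.0283), a call lost without Control-IR library 1 or without any of the 3 KO-IR libraries, with log2 values from 0.37 to 0.67 over the fits that leave out 1 library, and lost with library totals. Mlycd, which removes the malonyl-CoA that inhibits Cpt1a, ranged from 30.2 to 61.6 CPM over the 12 libraries and was not called in any comparison.

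The uptake genes moved apart. Fabp3, a cytosolic fatty acid carrier, stood at 95.8, 99.1 and 103 CPM in Control, 99.6, 91.3 and 86.2 in KO, 52.8, 39.0 and 85.2 in Control-IR, and 20.1, 23.2 and 22.6 in KO-IR. It fell by 2.08 ± 0.10 on the log2 scale against KO (adjusted p = 1.12e-07) and was lower than in Control-IR with a log2 fold change of −1.43 ± 0.27 (adjusted p = 0.00381). Fabp3 overlaps Zcchc17 on the opposite strand, whose counts came to 24.2% of those of Fabp3, and the strand of the reads was not given in the sources used here. Slc22a5, the transporter that brings in carnitine, stood at 395, 354 and 318 CPM in Control, 297, 313 and 326 in KO, 160, 118 and 189 in Control-IR, and 233, 191 and 187 in KO-IR. It fell by 0.62 ± 0.10 against KO (adjusted p = 0.000455), and the injured groups overlapped (0.38 ± 0.18, adjusted p = 0.122). Cd36, a membrane fatty acid translocase, stood at 143, 123 and 507 CPM in Control, the last in the male library, 551, 969 and 649 in KO, 374, 637 and 390 in Control-IR, and 755, 892 and 755 in KO-IR. It was higher in KO-IR than in Control-IR by 0.78 ± 0.21 (adjusted p = 0.0179), a call lost without Control-IR library 1 or 4, without KO-IR library 3 (log2 values from 0.63 to 1.05) and with library totals. Against KO its log2 fold change was 0.14 ± 0.18 (adjusted p = 0.507).

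Acsbg1, an acyl-CoA synthetase that joins long-chain fatty acids to coenzyme A, was near the detection limit in sham kidneys. Its counts summed to 6 in the 3 Control libraries, 14 in KO, 144 in Control-IR and 353 in KO-IR. The ratio of KO-IR to KO was 25.8 (95% exact counting interval 15.1 to 47.6), that of KO-IR to Control-IR 2.83 (2.33 to 3.46) and that of Control-IR to Control 22.7 (10.2 to 63.0), with intervals that cover counting error only. Control-IR libraries varied more (1.83, 4.75 and 0.758 CPM) than KO-IR libraries (7.09, 7.12 and 7.09 CPM). All of these differences were called (adjusted p from 3.10e-06 to 0.0407), but the call between the injured groups was lost without Control-IR library 1 or without any of the 3 KO-IR libraries, with log2 values from 1.11 to 2.39 (2.39 without Control-IR library 2), and with library totals. The fitted log2 fold change against KO was 4.63, and ran from 4.21 to 5.28 when 1 library was left out (5.28 without KO library 4), with the call held. That of Control-IR against Control was 4.39, and ran from 3.52 (without Control-IR library 2) to 4.80, with the call lost without Control library 1 or 2.

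The acyl-CoA dehydrogenases, which open each round of the cycle, did not move together: against KO, 6 of 8 were lower, Acadl was higher and Acadvl was not called, beside 32.7% of all genes lower and 32.9% higher. Acadl, for long chains, stood at 301, 286 and 390 CPM in Control, 381, 410 and 418 in KO, 389, 392 and 371 in Control-IR, and 544, 571 and 579 in KO-IR, where all 3 libraries exceeded every other. It rose by 0.48 ± 0.09 over KO (adjusted p = 0.000702) and was higher by 0.55 ± 0.11 than in Control-IR (adjusted p = 0.00428). Acadvl, for very long chains, ranged from 289 to 404 CPM over the 12 libraries and was not called in any comparison. Acadm, for medium chains, stood at 1278, 963 and 1262 CPM in Control, 1384, 1418 and 1182 in KO, 617, 426 and 927 in Control-IR, and 368, 404 and 389 in KO-IR. It fell by 1.78 ± 0.10 against KO (adjusted p = 3.73e-07). Against Control-IR its log2 fold change was −0.77 ± 0.26 (adjusted p = 0.0401), a call kept only without Control-IR library 2 among the 6 fits that leave out 1 library (log2 values from −1.01 to −0.44).

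Acads, for short chains, was lower than in KO and higher than in Control-IR, at 120, 106 and 162 CPM in Control, 157, 209 and 178 in KO, 101, 90.8 and 104 in Control-IR, and 138, 143 and 132 in KO-IR. It fell by 0.40 ± 0.11 against KO (adjusted p = 0.00746) and was higher by 0.47 ± 0.10 than in Control-IR (adjusted p = 0.00655), and with library totals the latter was not called (0.27, adjusted p = 0.0563). Acadsb, for short branched chains from isoleucine, stood at 217, 227 and 213 CPM in Control, 214, 200 and 218 in KO, 129, 90.7 and 131 in Control-IR, and 83.2, 77.3 and 74.2 in KO-IR. Its log2 fold change was −1.44 ± 0.09 against KO (adjusted p = 4.88e-07) and −0.59 ± 0.16 against Control-IR (adjusted p = 0.0164), the latter not called without Control-IR library 1 or without KO-IR library 3 or 4 (log2 values from −0.75 to −0.50). Acad9, which also serves in the assembly of respiratory complex I, stood at 72.3, 68.0 and 89.2 CPM in Control, 93.3, 113 and 90.7 in KO, 48.7, 44.5 and 61.5 in Control-IR, and 32.4, 34.7 and 29.4 in KO-IR. It fell by 1.62 ± 0.11 against KO (adjusted p = 8.71e-07) and was lower than in Control-IR (log2 −0.69 ± 0.14, adjusted p = 0.00632). The less studied members Acad10 and Acad11 fell against KO, by 1.05 ± 0.14 and 0.64 ± 0.13 on the log2 scale, from 89.9, 122 and 116 to 48.1, 62.6 and 47.7 CPM and from 264, 319 and 282 to 225, 175 and 160 CPM. The injured groups overlapped for both, with Control-IR at 59.0, 46.6 and 62.4 CPM for Acad10 and 193, 138 and 215 CPM for Acad11.

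**Figure D2:**
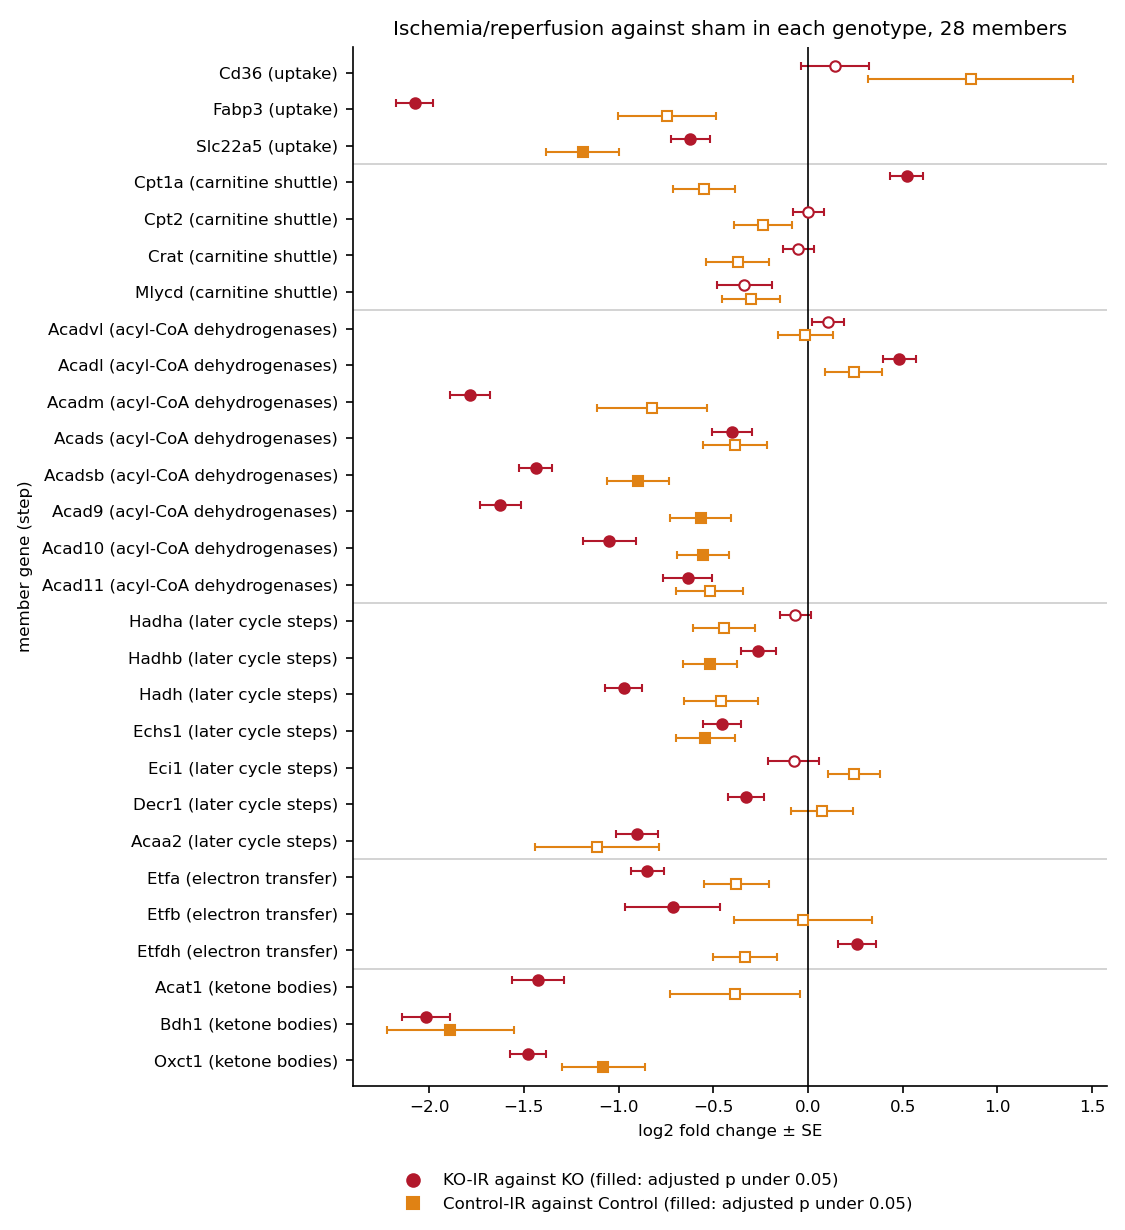
Log2 fold change ± SE (x axis) of 28 members in rows by step, for KO-IR against KO (circles) and Control-IR against Control (squares); filled symbols passed an adjusted p of 0.05, and Acsbg1 is left off for its few counts. Cpt1a lies at 0.52 in KO and −0.55 in Control, and the ketone body genes lie left of 0 in both.

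Of the 7 genes of the later steps of the cycle, 5 were lower in KO-IR than in KO, a share of 71.4% called beside 65.5% of all genes, and 0 were called, or below an unadjusted p of 0.05 in edgeR, between the injured genotypes, beside 46.9% of all genes called. The calls of Decr1 and Hadhb among the 5 were lost when some single libraries were left out. Hadh, the short-chain hydroxyacyl-CoA dehydrogenase, stood at 513, 576 and 528 CPM in KO and 303, 258 and 267 in KO-IR (log2 −0.97 ± 0.10, adjusted p = 1.33e-05). Acaa2, the thiolase that ends the round, stood at 184, 173 and 175 CPM in KO and 112, 89.3 and 84.4 in KO-IR (−0.90 ± 0.11, adjusted p = 5.87e-05). Echs1, the short-chain enoyl-CoA hydratase, stood at 196, 228 and 213 CPM in KO and 168, 159 and 140 in KO-IR (−0.45 ± 0.10, adjusted p = 0.00226). Their groups did not overlap, which also held for 70.8% of all genes tested. Decr1, which handles unsaturated chains, stood at 266, 260 and 262 CPM and then 233, 207 and 190 (−0.33 ± 0.09, adjusted p = 0.011), a call lost without KO-IR library 4 (log2 values from −0.40 to −0.26) and in the fit to all 12 libraries. Of the subunits of the trifunctional protein, Hadhb stood at 98.5, 91.0 and 105 CPM in KO and 78.8, 78.8 and 89.2 in KO-IR and was called (−0.26 ± 0.09, adjusted p = 0.0298), whereas Hadha, which shares its start region, ranged from 260 to 287 CPM in KO and from 254 to 264 in KO-IR (−0.07 ± 0.08, adjusted p = 0.498). The difference between the subunits was not tested, and the Hadhb call was lost in 4 of the 6 fits that leave out 1 library, those without KO library 1 or 4 or KO-IR library 2 or 3 (log2 values from −0.32 to −0.21), and with library totals. Eci1, an isomerase for unsaturated chains, ranged from 43.3 to 79.6 CPM over the 12 libraries and was not called.

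In Control-IR the levels of these genes lay among or around those of KO-IR: 365, 247 and 373 CPM for Hadh, 124, 61.7 and 165 for Acaa2, 162, 121 and 173 for Echs1, 235, 208 and 238 for Decr1, and 80.7, 69.8 and 98.1 for Hadhb. In Control they were 428, 420 and 512 for Hadh, 290, 252 and 220 for Acaa2, 226, 220 and 221 for Echs1, 204, 181 and 264 for Decr1, and 120, 125 and 112 for Hadhb. The log2 differences of the 7 later-step genes between the injured groups ran from −0.34 ± 0.17 for Eci1 to 0.17 ± 0.14 for Hadha, with adjusted p from 0.14 to 0.932.

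The genes of electron transfer moved apart. Etfa, a subunit of the electron transfer flavoprotein, stood at 281, 296 and 359 CPM in Control, 350, 390 and 368 in KO, 255, 194 and 267 in Control-IR, and 219, 203 and 196 in KO-IR. It fell by 0.85 ± 0.09 against KO (adjusted p = 1.70e-05), and the injured groups overlapped (−0.22 ± 0.14, adjusted p = 0.236). Etfdh, the membrane oxidoreductase that takes electrons from the flavoprotein to ubiquinone, stood at 213, 191 and 250 CPM in Control, 261, 278 and 251 in KO, 175, 142 and 201 in Control-IR, and 358, 292 and 299 in KO-IR. All 3 KO-IR libraries exceeded every other library. Etfdh was higher than in Control-IR by 0.87 ± 0.16 (adjusted p = 0.00363). Its rise over KO was small (0.26 ± 0.10, adjusted p = 0.0444) and was lost without KO library 1 or 4 or KO-IR library 2, with log2 values from 0.17 to 0.32, and in the fits to all 12 libraries. Etfb, the partner subunit, was counted at 5.86, 7.32 and 6.01 CPM in KO and 5.38, 3.74 and 2.77 in KO-IR (−0.71 ± 0.25, adjusted p = 0.0285), a call lost without KO library 2 or 4 or KO-IR library 3 or 4 (log2 values from −0.96 to −0.51) and in the fits to all 12 libraries. It held 1002 counts over all libraries, and per kilobase Etfa stood 33.0 to 45.7 times higher in the 4 group means although the subunits form a complex in equal parts. The exons of Etfb overlap those of Gm45233 on the same strand, which was listed at 0 counts, so the values of Etfb are uncertain.

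The genes of ketone body use all fell in KO-IR against KO, beside 32.7% of all genes called lower. Oxct1, which activates acetoacetate and commits it to oxidation, stood at 1981, 1735 and 2027 CPM in Control, 1965, 2128 and 2094 in KO, 959, 666 and 1080 in Control-IR, and 789, 736 and 707 in KO-IR. It fell by 1.48 ± 0.09 on the log2 scale against KO (adjusted p = 6.58e-07). Bdh1, the hydroxybutyrate dehydrogenase, stood at 253, 206 and 183 CPM in Control, 172, 226 and 164 in KO, 54.9, 32.1 and 85.5 in Control-IR, and 45.3, 49.0 and 45.0 in KO-IR, a fall of 2.02 ± 0.12 against KO (adjusted p = 5.91e-07). Acat1, the mitochondrial acetoacetyl-CoA thiolase, stood at 485, 454 and 995 CPM in Control, the last in the male library, 931, 1238 and 1000 in KO, 531, 351 and 592 in Control-IR, and 334, 428 and 422 in KO-IR, a fall of 1.43 ± 0.14 against KO (adjusted p = 1.08e-05). For each of the 3, sham and injured libraries of the KO genotype did not overlap, which also held for 70.8% of all genes tested. Between the injured groups the log2 differences were −0.29 ± 0.19, −0.32 ± 0.30 and −0.32 ± 0.21 for Oxct1, Bdh1 and Acat1, and none passed the test (adjusted p from 0.235 to 0.418).

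**Figure D3:**
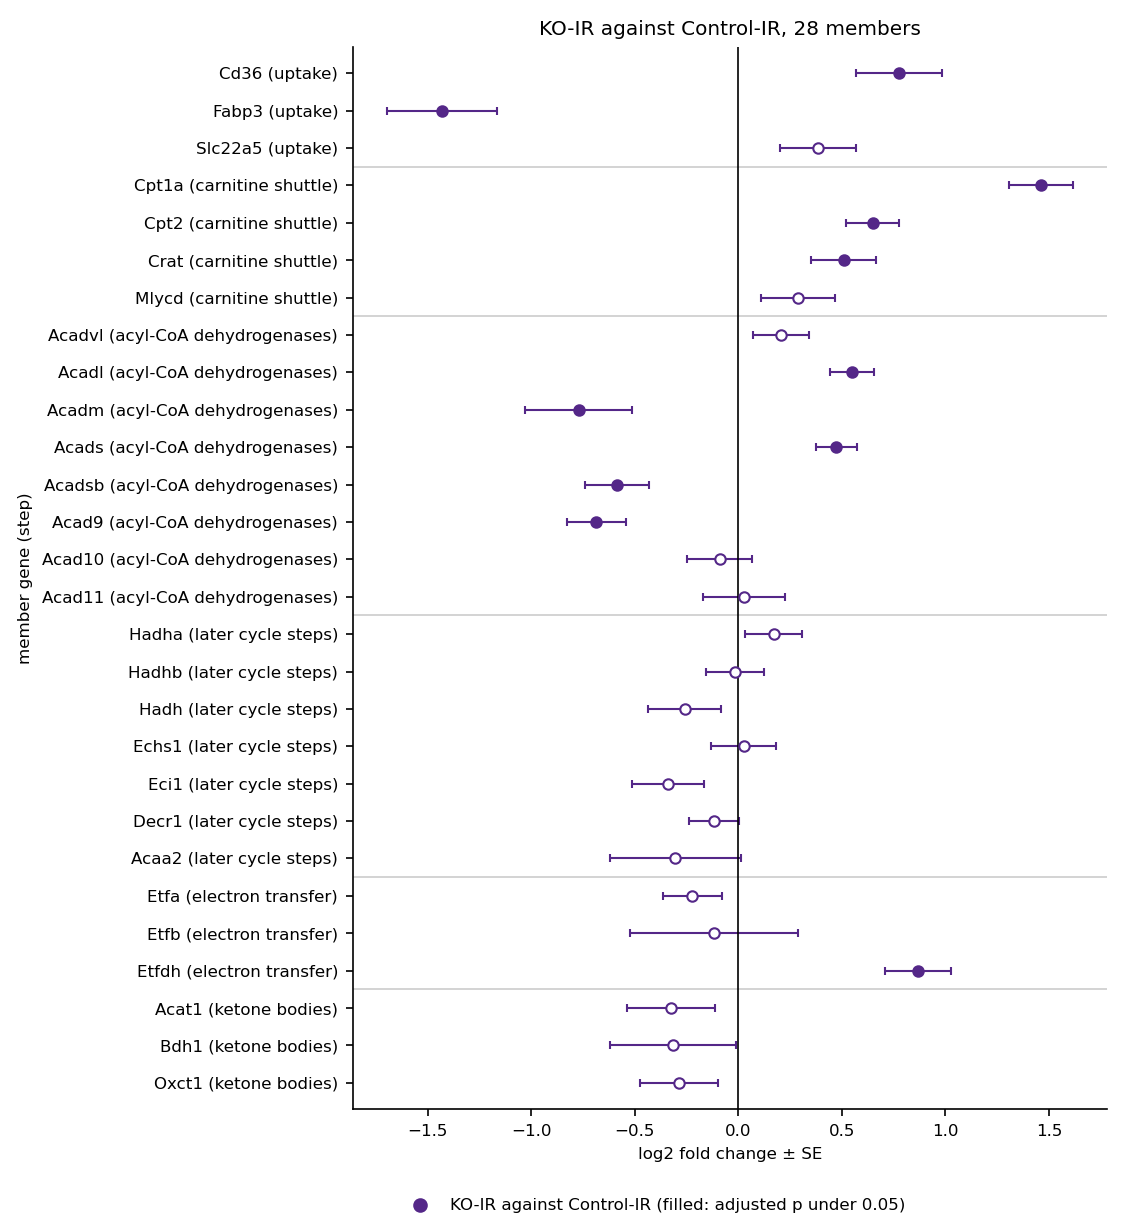
Log2 fold change ± SE (x axis) of KO-IR against Control-IR for 28 members in rows by step; filled circles passed an adjusted p of 0.05, and Acsbg1 is left off for its few counts. Cpt1a lies farthest to the right (1.46) and Fabp3 farthest to the left (−1.43), while the 7 later-step genes and the 3 ketone body genes hold open symbols.

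The order of the members by level per kilobase also changed. Oxct1 led in Control (517 ± 42.4 CPM per kb, SD, n = 3), KO (557 ± 23.2) and, by its mean alone, Control-IR (244 ± 57.5), where its spread overlapped that of Acadl (192 ± 5.67) and Acadl was the higher in library 2. In KO-IR Oxct1 stood at 201 ± 11.4, below Acadl (282 ± 8.94) and beside Cd36 (223 ± 21.9), whose spread overlaps it. Acadm was the next in KO (339 ± 32.6) and stood at 98.9 ± 4.64 in KO-IR, while Cpt1a stood at 90.8 ± 4.24 and then 131 ± 5.62. The ratio of Cpt1a to Acadm per length, chosen after the values were seen, was 0.218 to 0.255 in Control, 0.255 to 0.288 in KO, 0.186 to 0.381 in Control-IR and 1.23 to 1.46 in KO-IR. Summed over the 29 members, the level was 2288 to 2863 CPM per kb in Control, 2857 to 3207 in KO, 1493 to 2073 in Control-IR and 1863 to 1973 in KO-IR. The carnitine shuttle was the step with more than a few counts whose sum was highest in KO-IR (242 to 265 CPM per kb). The sum stood at 210 to 224 in KO and 110 to 140 in Control-IR. Its rise over KO lay in Cpt1a, the 1 gene of the 4 called there. Mean Cpt2 stood at 77.31 CPM per kb in KO and 77.77 in KO-IR, and the means of Crat and Mlycd were lower in KO-IR. Against Control-IR, 3 of the 4 were called higher.

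To see what injury did in the control genotype, Control-IR was compared with Control. Of the 29 members, 8 were lower (Slc22a5, Acadsb, Acad9, Acad10, Hadhb, Echs1, Bdh1 and Oxct1) and Acsbg1 was higher, with a median of −0.44. The background was 19.4% of 15567 genes called, 11.4% higher and 7.97% lower, and 18 members had groups that did not overlap against 43.6% of all genes. The 8 lower members were also among the 18 lower in KO-IR than in KO, where 32.7% of all genes were called lower. The overlap of the lower genes over all genes was not counted. The log2 fold changes of the 8 lower members ran from −1.89 ± 0.33 for Bdh1 to −0.52 ± 0.14 for Hadhb (adjusted p from 0.0121 to 0.0479). Of the 20 not called, Cpt1a stood at −0.55 ± 0.17 (adjusted p = 0.056) and Acadm at −0.82 ± 0.29 (adjusted p = 0.082). Sex and injury cannot be fully told apart here, since 2 of the 3 Control libraries were female and all Control-IR libraries male. With sex as a covariate over 12 libraries 10 members were called, 6 of them shared with the 9, beside 12.5% of all genes. With library totals Acad9, Echs1 and Hadhb were no longer called, and 20.0% of all genes were. No member was called without Control library 1 or without Control library 2, where 2.39% and 2.56% of all genes were called. Without Control-IR library 1, 3 members and 5.28% of all genes were called. Without Control-IR library 4, 15 members and 25.0% of all genes were called. Library 4 was the injured control library with the least Havcr1 (381 CPM, against 785 and 2105) and Lcn2 (161 CPM, against 240 and 456), markers of tubular injury. Their part in the result was not tested.

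In sham kidneys no member was called between KO and Control (0 of 28 tested, background 0% of 15291 genes, with 2573 genes and 13 members below an unadjusted p of 0.05 in edgeR). DESeq2 called 3 members, Cpt1a and Cpt2 higher and Acaa2 lower, beside 458 of the 15291 genes tested (3%). The groups did not overlap for 11 members, against 21.0% of all genes. The male Control library stood closer to KO than the female libraries for several genes: Cd36 was 3.82 times and Acat1 2.12 times the mean of the female Control libraries, followed by Acads (1.44 times), Decr1 (1.37 times) and Acadl (1.32 times), leaving aside Acsbg1 for its 6 counts. Without that library 15 members and 12.4% of all genes were called between KO males and Control females, and genotype and sex cannot then be told apart.

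To test whether the response to injury depended on genotype, the interaction was fitted over the 12 libraries. It was called for 6 of the 29 members against a background of 30.6% (14.3% higher, 16.4% lower). The change with injury in KO minus that in Control was positive for Cpt1a (difference of log2 fold changes 1.08 ± 0.18, adjusted p = 0.00117) and Etfdh (0.61 ± 0.20, adjusted p = 0.0395), whose fold changes with injury were above 0 in KO (0.52 and 0.26 on the log2 scale, both called) and below 0 in Control (−0.55 and −0.33, neither called). The difference was negative for Fabp3 (−1.32 ± 0.30, adjusted p = 0.00619), Acad9 (−1.05 ± 0.20, adjusted p = 0.0027), Acadm (−0.95 ± 0.32, adjusted p = 0.0403) and Acadsb (−0.52 ± 0.18, adjusted p = 0.0445). Cpt1a, Fabp3 and Acad9 were called in every fit that left out 1 library. The calls of Acadm, Acadsb and Etfdh were each lost without most single libraries: the interaction of Acadm was called without Control library 3 or Control-IR library 2, that of Acadsb without Control-IR library 2 and that of Etfdh without Control library 2 or Control-IR library 4. Their differences ran from −1.19 to −0.62, from −0.69 to −0.44 and from 0.47 to 0.72 over the 12 fits. With sex as a covariate 5 members were called, 4 of them among these 6, beside 20.0% of all genes. With library totals 10 were called, 2 higher and 8 lower, beside 28.4% of all genes.

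Around the members lay 35 further genes of fatty acid and ketone metabolism, of which 34 were found. In KO-IR against KO, 7 of 32 tested were higher and 23 lower (median −1.004), beside 32.9% higher and 32.7% lower of all genes. Against Control-IR 8 of 33 were higher and 10 lower (median −0.24), near the 22.5% and 24.4% of all genes. Slc16a1, a carrier of lactate, pyruvate and ketone bodies, rose from 23.4, 24.5 and 26.2 CPM in KO to 294, 203 and 222 in KO-IR (log2 3.27 ± 0.14) and stood at 43.6, 48.0 and 40.1 in Control-IR. Fabp4, a fatty acid carrier of fat, endothelium and macrophages, was also higher than in KO (1.12 ± 0.09). Acsl1, a long-chain acyl-CoA synthetase, was higher than in Control-IR (0.92 ± 0.30).

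Among those that fell were Acsm5, a medium-chain acyl-CoA synthetase (from 161, 194 and 165 to 14.6, 10.5 and 10.8 CPM, log2 −3.88 ± 0.14), Acad12 (−2.43 ± 0.14) and Aacs, a cytosolic acetoacetyl-CoA synthetase (−2.94 ± 0.24). These 3 were also lower than in Control-IR, by log2 values of −2.42 ± 0.36, −1.40 ± 0.23 and −1.50 ± 0.34. In Control-IR against Control, 1 of 33 was higher, Slc16a1 (0.94 ± 0.10), and 10 were lower, beside 11.4% and 7.97% of all genes. The lower genes were led by Acss1, which activates acetate (−1.62 ± 0.32), and the medium-chain acyl-CoA synthetases Acsm1 (−1.59 ± 0.29) and Acsm5 (−1.47 ± 0.33).

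Of 23 regulators of the pathway and their well-known targets, 9 were higher and 9 lower in KO-IR than in KO (78.3% called, beside 65.5% of all genes), and 10 were higher and 4 lower than in Control-IR (60.9% called, beside 46.9%, of which 22.5% higher and 24.4% lower). Plin2, which coats lipid droplets, stood at 89.3, 90.9 and 63.1 CPM in KO, 179, 278 and 78.7 in Control-IR, and 4258, 5138 and 4952 in KO-IR. It was higher than in KO by 5.88 ± 0.18 (adjusted p = 2.41e-08) and than in Control-IR by 4.74 ± 0.44 (adjusted p = 0.00031). Pdk4, the kinase that turns pyruvate oxidation down when fat is burned, stood at 32.3, 19.9 and 24.3 CPM in KO, 75.2, 61.0 and 27.6 in Control-IR, and 1231, 1263 and 1563 in KO-IR. Angptl4, a secreted inhibitor of lipoprotein lipase, stood at 54.5, 54.0 and 30.3 CPM in Control-IR and 267, 268 and 266 in KO-IR (2.52 ± 0.22). Cebpb rose over KO by 2.90 ± 0.14. The KO-IR libraries of Plin2, Pdk4 and Angptl4 lay far above every library of the other groups.

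The transcripts of estrogen-related receptor α and its coactivator moved the other way. Esrra stood at 113, 126 and 104 CPM in KO, 66.3, 53.0 and 103 in Control-IR, and 32.1, 32.2 and 25.8 in KO-IR, a log2 fold change of −1.93 ± 0.11 against KO and −1.31 ± 0.24 against Control-IR. Ppargc1a, the coactivator that drives mitochondrial genes, stood at 114, 98.1 and 116 CPM in KO, 63.1, 44.8 and 87.6 in Control-IR, and 39.4, 33.5 and 37.3 in KO-IR (−1.58 ± 0.10 and −0.84 ± 0.23). Lpin1, a further coactivator, was lower than in KO (−1.42 ± 0.11), and Esrrg, a related receptor, was lower than in Control-IR (−0.65 ± 0.18). In Control-IR against Control, 34.8% of the regulators were called beside 19.4% of all genes: 4 of the 23 were higher, among them Cebpb (1.95 ± 0.44), Plin2 (1.505 ± 0.40) and Ucp2 (0.80 ± 0.15), and 4 were lower, among them Esrrb (−1.41 ± 0.27), Klf15 (−1.36 ± 0.28) and Ppargc1a (−1.02 ± 0.24). Ppara, the receptor that senses fatty acids, stood at 93.4, 102 and 111 CPM in KO, 43.5, 33.4 and 66.2 in Control-IR, and 104, 91.4 and 127 in KO-IR, and is named here after its values were seen. It was higher in KO-IR than in Control-IR (1.17 ± 0.25, adjusted p = 0.00674) and overlapped the KO libraries.

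**Figure D4:**
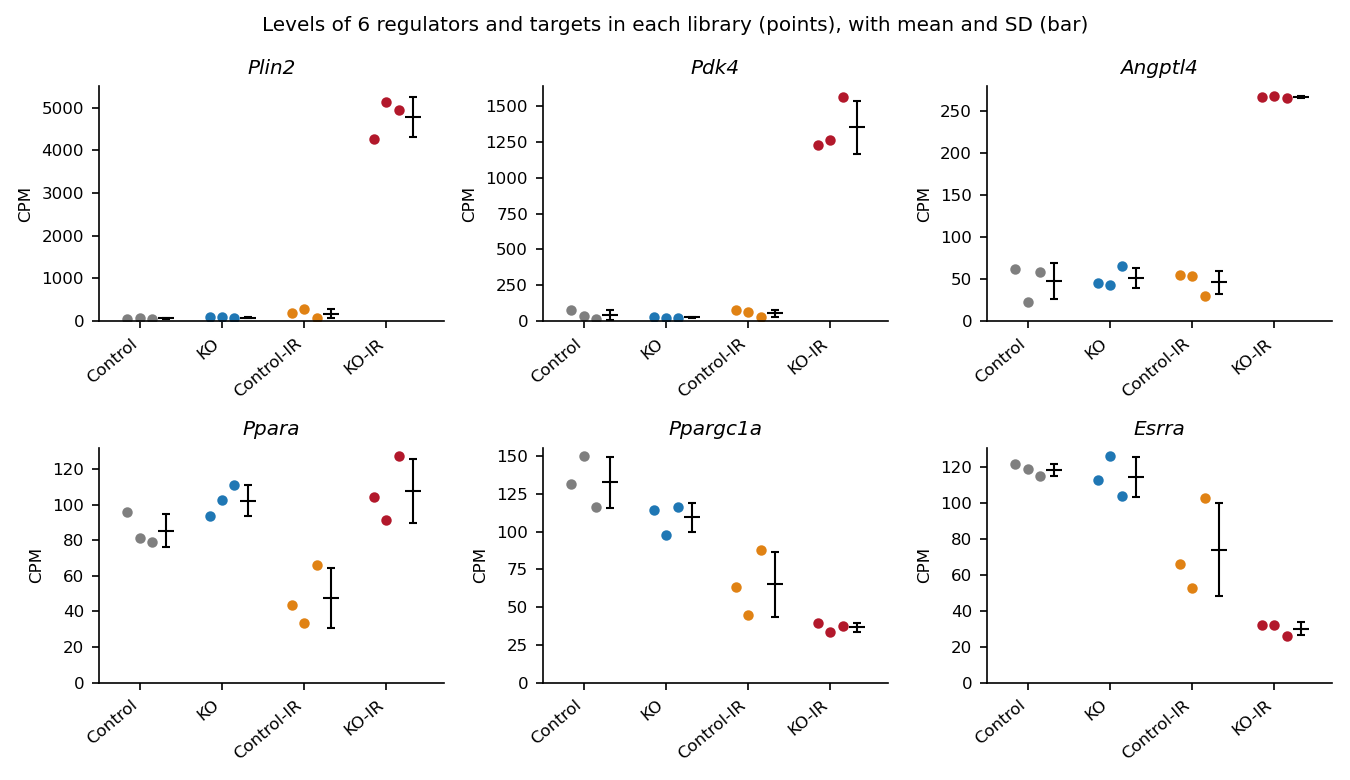
Levels of 6 regulators and targets (y axis, CPM from 0) in the 4 groups (x axis); points are the 3 libraries of a group and the bar is their mean ± SD. The KO-IR points of Plin2, Pdk4 and Angptl4 lie above all others (Plin2 from 4258 to 5138 CPM), and those of Esrra and Ppargc1a lie below all others.

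These levels come from whole cortex, in which fewer cells of a type and less RNA per cell cannot be told apart. Proximal tubule markers were lower as well: 12 of 12 were lower in KO-IR than in KO (median −2.52), 6 of 12 lower than in Control-IR (median −1.30) and 5 of 12 lower in Control-IR than in Control (median −0.86). Their summed level was 2588 to 3291 CPM per kb in Control, 2930 to 3360 in KO, 801 to 1970 in Control-IR and 554 to 729 in KO-IR. Markers of other tubule segments were also lower: all 4 markers of the thick ascending limb, 5 of 6 of the collecting duct and 2 of 3 of the distal convoluted tubule were lower in KO-IR than in KO, while Trpm6 of the last list was higher. Against Control-IR 3 of 4, 0 of 6 (1 below an unadjusted p of 0.05 in edgeR) and 1 of 3 were lower. The injured groups also differed in markers of tubular injury, of which 4 of 5 were higher in KO-IR than in Control-IR (Havcr1, Lcn2, Krt20 and Sox9, median of the 5 log2 1.94, with Havcr1 at an adjusted p of 0.0494). Krt20, a keratin of injured tubules, stood at 34.2, 53.9 and 8.91 CPM in Control-IR and 984, 886 and 1282 in KO-IR (5.02 ± 0.59), whereas Spp1 was not called (0.165 ± 0.31). The part of this difference in the members' levels between the injured groups was not tested. Of the 9 leukocyte markers 7 were tested in KO-IR against KO, with 3 higher (Cd68, S100a8 and S100a9) and 4 lower (Ptprc, Adgre1, Csf1r and Lyz2). The same 3 were higher and the same 4 lower against Control-IR, where Lyz2 stood at 99.5, 41.8 and 51.8 CPM in Control-IR and 5.72, 4.98 and 3.29 in KO-IR, and S100a9 at 9.90, 15.0 and 3.85 in Control-IR and 21.6, 32.9 and 37.4 in KO-IR. Summed leukocyte markers, which hold these opposite shifts, stood at 71.0 to 130 CPM per kb in Control-IR and 84.4 to 125 in KO-IR, against 22.4 to 25.6 in the sham groups. Summed fibroblast markers stood at 41.1 to 49.7 CPM per kb in Control-IR and 12.6 to 21.0 in KO-IR, with Col1a1 and Col1a2 lower and Pdgfrb and Dcn not called. Endothelial markers stood at 56.0 to 56.8 CPM per kb in KO-IR and 40.2 to 44.9 in Control-IR. The part of any of these cells in the members' levels was not tested. White fat markers summed to 3.73 to 7.51 CPM per kb in KO-IR, of which Cidec, which also coats lipid droplets in other cells, gave 3.73, 5.1 and 3.64. In KO-IR library 3 the fat cell marker Cfd gave 1.93 CPM per kb, and Plin1 and Lep had counts as well. Adipoq, which defines fat cells, stood at 0, 0.311 and 0 CPM in KO-IR, and in Control library 1 the same sum was 38.6.

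**Figure D5:**
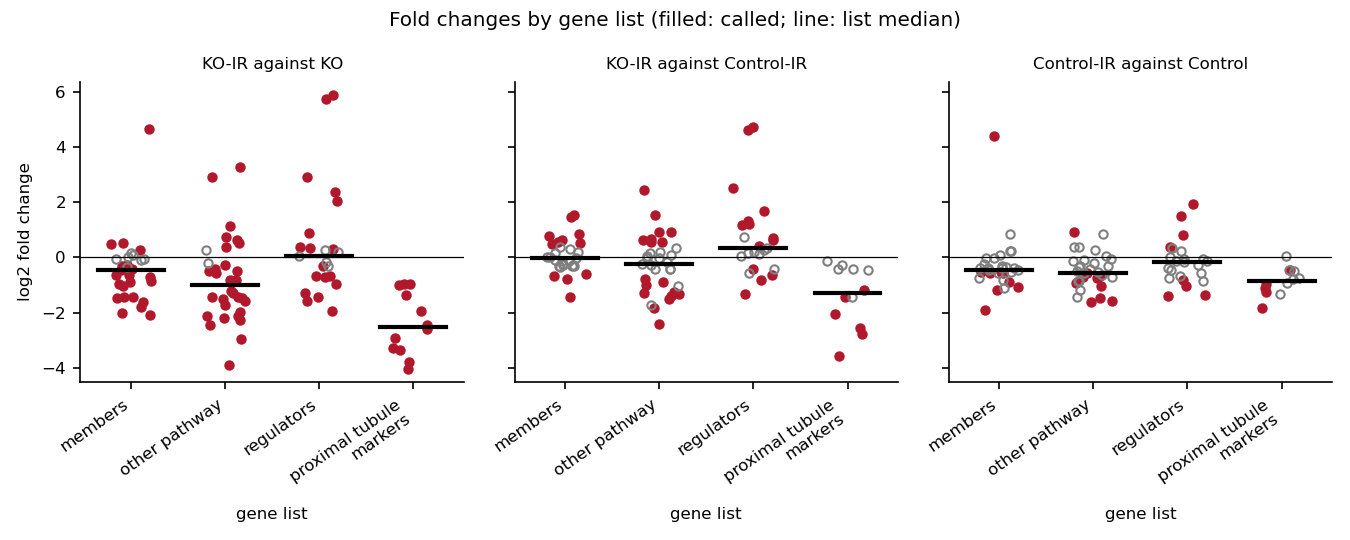
Log2 fold changes (y axis) of the members, other pathway genes, regulators and proximal tubule markers (x axis) in 3 comparisons (panels); points are genes, filled where called at an adjusted p below 0.05, and lines are list medians. Against KO the medians are −0.45 for the members and −2.52 for the proximal tubule markers, and against Control-IR they are −0.02 and −1.30.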

How the data were processed

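RNA of kidney cortex was sequenced in 12 libraries, and the authors deposited a table of raw counts per gene. Per the labels, HISAT2 2.0.4 and the genome mm10 (GRCm38) were used, and the counter, annotation and strand setting are not given in the sources used here. Gene names, positions and exon lengths were taken from GENCODE M21. The third Control column carries a number that no Control label has, and a Control label is left without a column. The column was used as a Control library under its own number, and its sample was not identified. No value column was left unmapped.

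Counts were filtered with filterByExpr, scaled by TMM and tested with edgeR 4.0.16 (glmQLFit, glmQLFTest, R 4.3.3) on the 6 libraries of a comparison, and on all 12 for the interaction. P-values were adjusted by Benjamini-Hochberg over all genes tested and called below 0.05. Alternatives were DESeq2 1.42.0, library totals, no filter, at least 10 counts in every library, a replicate block, sex, a fit to all 12 libraries and leaving out each library. Sex was read from Xist above 1000 counts. The fits were tested on simulated data. The members and gene lists were chosen with earlier results of these data known, and every member is named. Of further pathway genes and regulators, the 3 highest and 3 lowest fold changes called per comparison with a mean of at least 100 counts are named, and Ppara beside them, and 1 gene that met this rule is not reported here. The depth of each library limits the precision of low genes such as Acsbg1 and Etfb. The main fits did not pair the libraries. Residuals of same-numbered libraries had a median correlation of −0.02 over 12 pairs, and 1 pair exceeded 0.1. Libraries with different numbers were not compared in this way, so whether a replicate number marks a shared batch was not tested.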

Additional observations from a re-analysis of the deposited data

Results flagged for a closer look

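The change with injury differed between the genotypes, by the interaction test of edgeR over 12 libraries, for 6 of the members and 11 of the other named genes. Values are the log2 fold change in KO minus that in the control genotype. Among the members they were 1.08 for Cpt1a, 0.61 for Etfdh, −1.32 for Fabp3, −0.95 for Acadm, −0.52 for Acadsb and −1.05 for Acad9. Among further pathway genes they were 2.35 for Slc16a1, 1.45 for Acsl1, 0.74 for Slc27a4, a fatty acid transport protein, −2.53 for Aacs, −2.39 for Acsm5 and −1.49 for Acad12. Among regulators and targets they were 5.38 for Pdk4, 4.38 for Plin2, 2.42 for Angptl4, −1.24 for Esrra and −0.71 for Esrrg. In total 16 of 33 further pathway genes (5 higher, 11 lower) and 10 of 23 regulators (8 higher, 2 lower) were called, against 30.6% of all genes tested. Of the proximal tubule markers, 7 of 12 were called, all lower. The Control group, which enters each of these values, held 2 female libraries.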

How the results depend on the processing

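The 22 calls in KO-IR against KO numbered 18 to 23 under the other settings and 19 to 22 when 1 library was left out. Elsewhere the counts moved more, as did the share of all genes called, which is given after each count. Against Control-IR, the replicate block left 2 of 12 calls (1683 of 15281 genes, from 46.9%), and leaving out 1 library gave 7 to 18 (31.0% to 48.0%). In Control-IR against Control (9 calls), DESeq2 gave 15 (26.0%), the replicate block 14 (23.2%) and the fit to all 12 libraries 18 (30.5%), and leaving out 1 library gave 0 to 15 (2.39% to 25.0%). In KO against Control (0 calls), DESeq2 gave 3 (458 of 15291 genes), no filter 1 (1.47%) and the replicate block 7 (9.01%), and leaving out 1 library gave 0 to 15 (0% to 12.4%). The interaction (6 calls) gave 10 with library totals (28.4%) and 3 to 10 when 1 library was left out (21.7% to 33.2%). The cause of these moves was not tested. Whether libraries with the same replicate number share a batch was not tested, so the calls lost under the block remain a limit of these results. With library totals the median of all genes was 0.11 in Control-IR against Control, −0.14 in KO against Control and −0.10 for the interaction.

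Of 1237 values of single members under these settings, 1013 kept their direction and side of the threshold, 134 lost a call, 50 gained one and 40 changed sign. These values cover KO-IR against KO, KO-IR against Control-IR and Control-IR against Control for all members. For the interaction they cover only the members called, and KO against Control is not among them. No member that was called changed sign under any of these settings. Of members not called, some crossed 0. In KO-IR against KO, the replicate block gave −0.073 for Cd36 and −0.018 for Cpt2, and Cpt2 was −0.004 in DESeq2 and −0.029 with at least 10 counts in every library. Leaving out 1 library gave −0.024 to 0.41 for Cd36, −0.021 to 0.045 for Cpt2 and −0.22 to 0.057 for Eci1. Against Control-IR, library totals gave −0.17 for Acad11, −0.031 for Hadha and −0.17 for Echs1, the minimum of 10 counts gave −0.001 for Acad11, and the replicate block gave 0.020 for Hadhb and 0.33 for Etfb. Leaving out 1 library gave −0.15 to 0.16 for Acad11, −0.14 to 0.12 for Hadhb, −0.12 to 0.13 for Echs1, −0.62 to 0.026 for Acaa2, −0.44 to 0.27 for Etfb and −0.61 to 0.083 for Bdh1. In Control-IR against Control, the sex covariate gave −0.12 for Cd36, −0.020 for Acadl and −0.22 for Decr1, and library totals gave 0.10 for Acadvl and 0.084 for Etfb. Leaving out 1 library gave −0.13 to 0.088 for Acadvl, −0.024 to 0.25 for Decr1, −0.42 to 0.30 for Etfb and −0.57 to 0.084 for Acat1.

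Groups of 3, the mixed sex of Control and the unknown strand of the reads limit these results, and the lowest counts (Acsbg1 in sham kidneys, Etfb throughout) limit the precision of their ratios.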
